A study of Homo sapiens with 12 samples.

Results

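The genes described here are the heat shock proteins with their DNAJ co-chaperones, the BAG cofactors and the transcription factor HSF1. They were taken by symbol, from the HSPA, HSPB, HSPD, HSPE, HSPH, HSP90A, DNAJA, DNAJB and DNAJC families together with BAG1 to BAG6, HSF1 and HSF2. HSPA5, DNAJB9, HSPBP1, HSPBAP1, pseudogenes and antisense genes were left out. Of 71 such genes with a probe set annotated to 1 symbol, 60 reached log2 4 or more on at least 3 arrays and were tested, among 13130 genes tested in all. The other 11 were below that level: DNAJB7, DNAJB8, DNAJC12, DNAJC15, DNAJC28, HSPA12B, HSPB2, HSPB3, HSPB6, HSPB7 and HSPB9. HSPA1A and HSPA1B, the stress-inducible cytosolic HSP70 genes, HSPA8, the constitutive cytosolic HSP70, and DNAJC25 had only probe sets annotated to several genes and were given no value. HSF2 was not analysed here.

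HSP70 proteins bind exposed hydrophobic stretches of other proteins and release them in a cycle driven by ATP. DNAJ proteins deliver clients and start ATP hydrolysis, and BAG and HSP110 proteins make HSP70 let go of its nucleotide and client. Clients can be passed on to HSP90 or to chaperonins, and when unfolded proteins accumulate, HSF1 binds heat shock elements in the promoters of many of these genes and drives their transcription.

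The data were Affymetrix expression arrays of Sk-hep1 cells, an established human line labelled as an endothelial-type adenocarcinoma from liver ascites. Cells were kept for 12 hours in high-fat medium (HFM, built on DMEM/F12) or growth medium (GM, built on DMEM), or for 24 hours in HFM or GM, with 3 arrays for each of the 4 groups. Before that, all cells grew in DMEM with fetal bovine serum, penicillin, streptomycin and glutamine. No source used here names the fat of HFM, and since HFM and GM also rest on different basal media, fat and basal medium cannot be told apart. The stated aim was to profile expression after incubation in a high-fat environment. Nothing in the labels says that the arrays of a group came from separate cultures, so a p-value here measures the spread between arrays, and that spread may be technical. In RNA from whole cultures, fewer cells with a transcript and less transcript per cell cannot be told apart.

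The array HFM 12-hour replicate 1 stood apart. It correlated at r = 0.991 to 0.992 across genes with the other arrays of its group, which correlated at 0.999 with each other. Those other arrays correlated at 0.993 to 0.994 with the GM 24-hour arrays, higher than with their own replicate 1. Spiked-in hybridisation controls averaged 10.38 to 10.55 on the HFM 12-hour arrays and 10.60 to 10.63 on the GM 12-hour arrays, with replicate 1 the highest HFM array, and 10.36 to 10.37 on the HFM 24-hour arrays and 10.23 to 10.42 on the GM 24-hour arrays. For the tested members, replicate 1 differed from the mean of the others by a median of 0.21 log2 units, and the others differed from each other by 0.04. Results are therefore given with and without this array. Arrays were kept in the groups of their labels, and whether arrays were exchanged or handled in another batch, which would bear on every 12-hour difference, was not tested. Of the endothelial markers, CDH5, VWF, TEK and KDR were below the level tested. So were the hepatocyte genes ALB, APOA1, APOB, FGB and AHSG, the leukocyte genes PTPRC and CD3E and the epithelial genes EPCAM and CDH1. Other markers of each type were tested. The highest were the endothelial ENG (7.14 to 7.74), the hepatocyte TTR (5.15 to 5.74), the leukocyte CD79A (5.60 to 6.46) and the epithelial KRT19 (10.70 to 11.85).

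Calls among the members were near the share of all genes at 12 hours, and at 24 hours a larger share of the members than of all genes was called, mostly lower in HFM. At 12 hours, 18 of the 60 were higher in HFM than in GM and 22 were lower (limma with Benjamini-Hochberg adjustment, adjusted p under 0.05), with 28.9% of all genes tested called higher, 33% lower and 61.9% called at all. At 24 hours, 9 were higher and 33 lower, with 20.6% and 37.5% of all genes and 58.1% called at all. The median log2 difference of the members, HFM minus GM, was -0.01 at 12 hours, with -0.07 for all genes, and -0.24 at 24 hours, with -0.08 for all genes. The arrays of HFM and GM did not overlap for 42 members at 12 hours (63.6% of all genes) and 50 at 24 hours (68.7%). Changes of 2-fold or more were rare at 12 hours, when 1 member was higher and 0 were lower (1.94% and 0.236% of all genes). At 24 hours, 1 was higher by that much and 8 were lower (2.28% and 5.2%). Without HFM 12-hour replicate 1, 20 were higher and 24 lower at 12 hours, and 14 higher and 36 lower at 24 hours. The number called higher at 24 hours therefore depends on an array of another time, through the shared estimate of the spread. The shares of all genes called without that array are not given here. Every count of members without it therefore lacks such a share, and a gain of calls there cannot be told from a gain over all genes. When each array was centred on the median of its tested genes, the median of all genes at 24 hours moved by 0.18, and 16 members were higher and 26 lower in HFM, with 37% and 26.2% of all genes. Of 40 members with further probe sets, another (in a fit over all probe sets) was called against the gene's direction for 2 at 12 hours and 2 at 24 hours, and was called where the gene itself was not for 6 and 8. The signal of ACTB near its 3' end minus that near its 5' end, a measure of RNA integrity, was 1.58 ± 0.06 log2 units in HFM and 1.07 ± 0.05 in GM at 24 hours, and 0.84 ± 0.13 in HFM and 0.89 ± 0.03 in GM at 12 hours (SD, n = 3 each). For GAPDH it was 0.27 ± 0.03 in HFM and 0.16 ± 0.02 in GM at 24 hours. The part of this difference in the 24-hour results was not tested. The members with the largest differences are spread over the genome (GRCh38.p14), with DNAJB6 at chr7:157337004-157417439, HSPA2 at chr14:64535905-64543237, DNAJA1 at chr9:33025273-33039907, HSPA4L at chr4:127781796-127840733 and DNAJC3 at chr13:95677139-95794988.

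**Figure D1:**
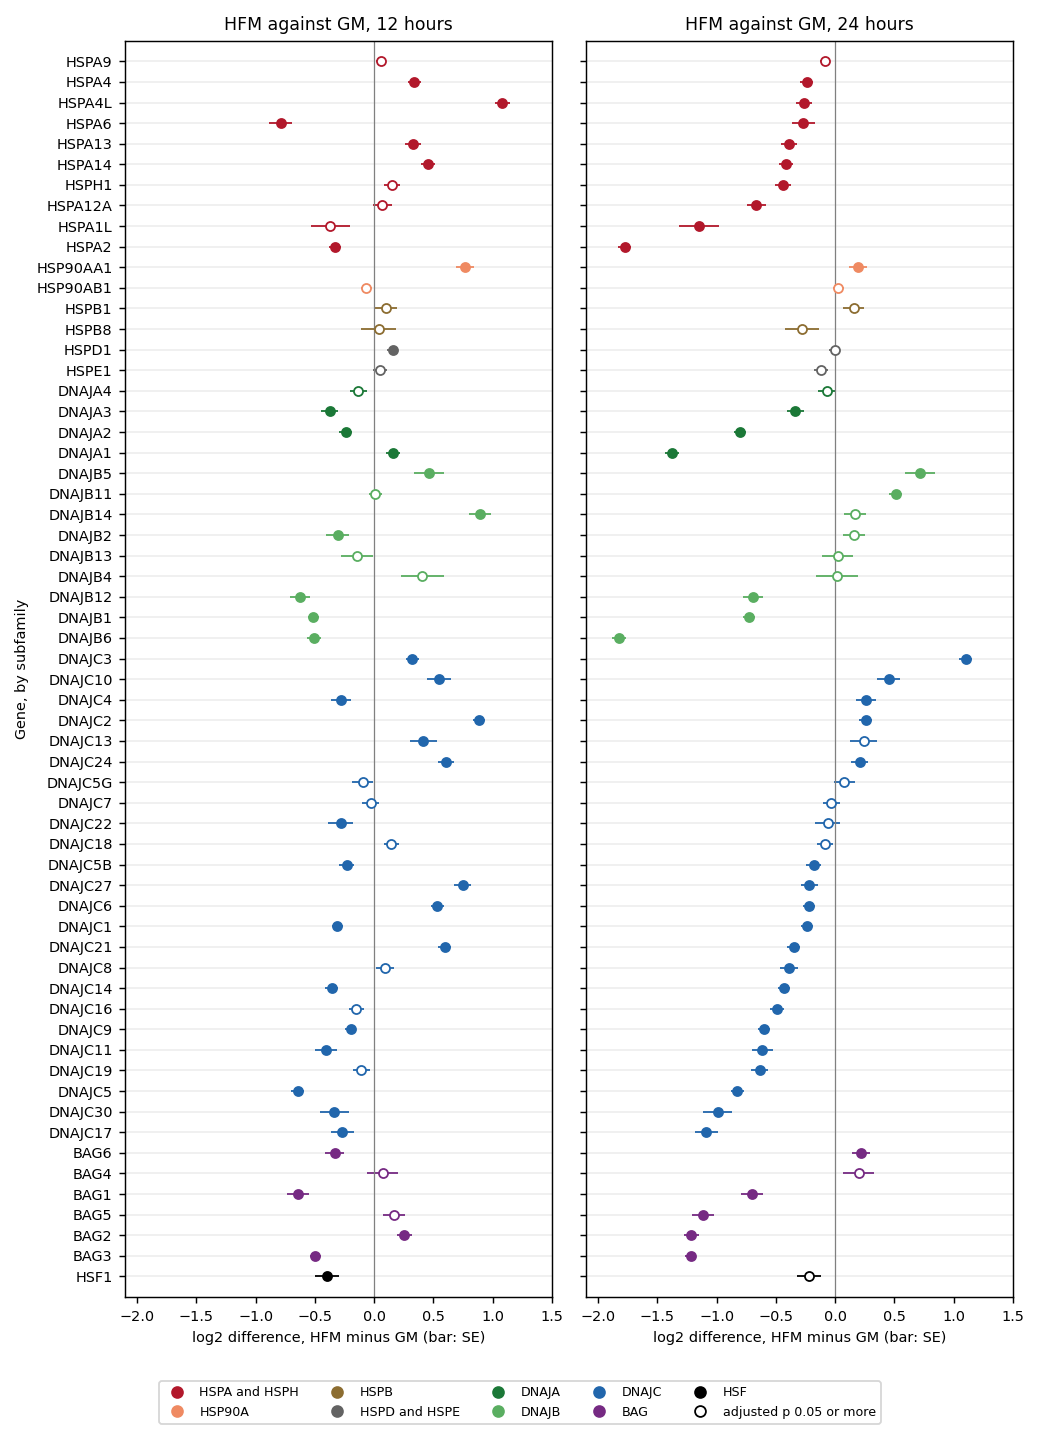
Log2 difference, HFM minus GM, of the 60 tested members at 12 hours (left) and 24 hours (right), with standard errors from limma and 3 arrays per group. Genes run down the page by subfamily, filled points have an adjusted p under 0.05, and the right panel shows 33 filled points below 0 and 9 above it.

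HSF1, the regulator of the response, was lower in HFM at 12 hours. Its log2 level was 7.44, 6.98 and 7.06 on the HFM arrays, against 7.54, 7.52 and 7.61 on the GM arrays, so the groups did not overlap and HFM replicate 1 lay nearest to GM. The difference was -0.40 ± 0.10 (SE, n = 3 each; limma adjusted p = 0.0049) and -0.54 without that replicate (adjusted p = 1.4e-05). With a term for the class of an array's hybridisation controls (high or low), the 12-hour difference was -0.11. That fit sets HFM against GM at 12 hours by way of 1 HFM array. At 24 hours HSF1 was 6.80, 6.79 and 6.93 in HFM, against 7.11, 7.02 and 7.04 in GM. This difference of -0.22 ± 0.10 missed the threshold (limma adjusted p = 0.078). Without HFM 12-hour replicate 1, the same 24-hour difference had an adjusted p of 0.0025. HSF1 carries out its role mainly through changes of the protein, which arrays do not measure.

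RefSeq promoter windows (GRCh38.p14, 250 bases before to 50 after an annotated start) were matched by symbol to 53 of the tested members, and searched for heat shock element units. In 16 members a window held GAANNTTC or TTCNNGAA, on either strand since both read the same from the other strand, a match that 16.2% of all genes have in any of their windows. In 6 members a window held 3 units in a row, that is TTC, any 2 bases, GAA, any 2 bases and TTC, or the same with TTC and GAA exchanged. Such a run contains overlapping matches of the shorter motif, and 0.608% of all genes have one in any window. These 6 windows are shown because they carry the sequence that HSF1 reads, next to the values that follow. Capitals mark the runs of 3 units. The windows are chr9:33025023-33025322 for DNAJA1, chr7:157336754-157337053 for DNAJB6, chr6:44247693-44247992 for HSP90AB1 and chr1:161524290-161524589 for HSPA6 on the plus strand, and chr14:102086995-102087294 for HSP90AA1 and chr2:197499791-197500090 for HSPD1 on the minus strand.
HSP90AA1: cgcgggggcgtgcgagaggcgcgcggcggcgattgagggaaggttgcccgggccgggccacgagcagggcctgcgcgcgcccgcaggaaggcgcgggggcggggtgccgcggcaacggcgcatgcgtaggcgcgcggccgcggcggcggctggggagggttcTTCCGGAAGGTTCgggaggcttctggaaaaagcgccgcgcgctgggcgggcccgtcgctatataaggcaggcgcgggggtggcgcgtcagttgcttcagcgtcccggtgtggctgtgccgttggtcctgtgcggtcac
HSP90AB1: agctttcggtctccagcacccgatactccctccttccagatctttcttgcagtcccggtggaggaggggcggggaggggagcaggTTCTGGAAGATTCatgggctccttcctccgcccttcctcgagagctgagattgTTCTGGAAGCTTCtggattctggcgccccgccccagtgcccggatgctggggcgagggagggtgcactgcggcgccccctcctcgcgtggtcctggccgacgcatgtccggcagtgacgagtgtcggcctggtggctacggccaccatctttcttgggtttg
HSPA6: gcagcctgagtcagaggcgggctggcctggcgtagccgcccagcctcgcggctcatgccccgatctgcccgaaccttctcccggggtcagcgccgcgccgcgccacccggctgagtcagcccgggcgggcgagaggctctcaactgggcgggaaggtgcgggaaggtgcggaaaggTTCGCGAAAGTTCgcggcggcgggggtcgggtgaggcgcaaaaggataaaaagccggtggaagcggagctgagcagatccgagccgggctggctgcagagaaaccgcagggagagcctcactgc
HSPD1: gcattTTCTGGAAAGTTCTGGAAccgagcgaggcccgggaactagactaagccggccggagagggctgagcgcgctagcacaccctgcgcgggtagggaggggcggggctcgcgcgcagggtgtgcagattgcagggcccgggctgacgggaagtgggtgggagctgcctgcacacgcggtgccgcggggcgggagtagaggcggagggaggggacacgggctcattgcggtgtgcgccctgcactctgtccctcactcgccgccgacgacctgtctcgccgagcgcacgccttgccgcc
DNAJA1: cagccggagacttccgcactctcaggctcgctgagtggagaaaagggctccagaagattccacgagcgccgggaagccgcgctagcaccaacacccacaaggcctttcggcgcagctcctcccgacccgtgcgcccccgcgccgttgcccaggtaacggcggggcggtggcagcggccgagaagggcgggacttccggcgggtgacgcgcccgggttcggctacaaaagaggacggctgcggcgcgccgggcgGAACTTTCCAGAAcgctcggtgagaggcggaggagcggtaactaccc
DNAJB6: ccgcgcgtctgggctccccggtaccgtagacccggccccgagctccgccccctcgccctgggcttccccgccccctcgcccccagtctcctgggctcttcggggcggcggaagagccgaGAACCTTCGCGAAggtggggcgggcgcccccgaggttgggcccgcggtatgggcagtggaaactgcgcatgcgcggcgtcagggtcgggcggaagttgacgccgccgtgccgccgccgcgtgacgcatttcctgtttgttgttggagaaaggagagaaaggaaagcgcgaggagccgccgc
Counted from the annotated start, the capitals began at -88 in HSP90AA1, at -74 in HSPA6, at -131 in DNAJB6 and at base 4 of the DNAJA1 transcript. HSP90AB1 had separate runs at -165 and -112, and the HSPD1 capitals, from -245, are overlapping matches.

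These 6 genes did not share a direction. At 24 hours, DNAJB6, DNAJA1 and HSPA6 were lower in HFM, HSP90AA1 was higher, and HSP90AB1 and HSPD1 did not pass the test. At 12 hours, HSP90AA1, HSPD1 and DNAJA1 were higher, DNAJB6 and HSPA6 were lower, and HSP90AB1 did not pass. Among the 16 members with a 2-unit match, 1 was higher, 8 were lower and 7 were not called at 24 hours. Of all 60 tested members, 9 were higher and 33 lower at 24 hours, and of all genes 20.6% and 37.5%. A match describes letters in the window and says nothing about binding in these cells.

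Of the cytosolic HSP90 genes, the inducible HSP90AA1 was higher in HFM, while the probe set standing for the constitutive HSP90AB1 did not pass the test at either time. HSP90AA1 was 12.75, 12.96 and 12.97 in HFM at 12 hours, against 12.25, 12.12 and 12.01 in GM, and the groups did not overlap. It was higher in HFM by 0.76 ± 0.08 (adjusted p = 5.8e-06), or 0.84 without HFM 12-hour replicate 1. At 24 hours it was 13.17, 13.20 and 13.18 in HFM, against 12.94, 12.95 and 13.07 in GM. This difference of 0.19 ± 0.08 had an adjusted p of 0.044, and the call was lost on leaving out any of 6 arrays in turn (GM 12-hour replicate 2, each HFM 24-hour array, GM 24-hour replicates 1 and 2), with adjusted p between 0.059 and 0.12. With quantile normalisation repeated, it was 0.13 (adjusted p = 0.15). Its other 3 probe sets were at 0.64, 1.04 and 1.37 at 12 hours, and at 0.18, 0.10 and -0.07 at 24 hours. HSP90AA1 was thus higher in HFM at 12 hours on every probe set, while only the probe set standing for the gene was called at 24 hours. HSP90AB1 was 12.49, 12.43 and 12.44 in HFM at 12 hours, against 12.51, 12.53 and 12.53 in GM. At 24 hours it was 12.49, 12.43 and 12.42 in HFM, against 12.46, 12.44 and 12.36 in GM. Its differences were -0.07 ± 0.05 at 12 hours and 0.03 ± 0.05 at 24 hours (adjusted p = 0.24 and 0.67), and the HFM and GM arrays overlapped at 24 hours. Its other probe sets were both called lower at 24 hours (-0.45 and -0.17; adjusted p = 2.6e-05 and 0.016). The 24-hour value became -0.20 when the 3 probe sets were averaged (adjusted p = 0.0014), and with arrays centred the gene passed the threshold upward.

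The HSP70 and HSP110 genes were mostly lower in HFM at 24 hours, when 0 of 10 were higher and 9 were lower, with a median of -0.40. Of all genes, 20.6% were higher and 37.5% lower. At 12 hours 4 of the 10 were higher and 2 lower (28.9% and 33% of all genes). With arrays centred, 6 of the 10 were lower at 24 hours and 0 higher (26.2% and 37% of all genes). HSPA2, an HSP70 best known from male germ cells, gave the largest fall of this family. Its level was 6.80, 6.83 and 6.91 in HFM at 24 hours, against 8.62, 8.67 and 8.57 in GM, which is 3.43-fold lower in HFM with a wide gap between the groups. The log2 difference was -1.78 ± 0.05 (adjusted p = 2.2e-10). At 12 hours HSPA2 was 8.94, 8.86 and 8.84 in HFM, against 9.18, 9.21 and 9.24 in GM, a smaller fall of 0.33 ± 0.05 on the log2 scale (adjusted p = 0.00021).

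HSPA4L, HSPA4 and HSPH1 are the HSP110-type partners, which act as nucleotide exchange factors and hold unfolded proteins in solution. HSPA4L was the member with the largest rise at 12 hours. It was 8.38, 8.23 and 8.14 in HFM, against 7.26, 7.11 and 7.13 in GM, 2.12-fold higher in HFM with no overlap (1.08 ± 0.07; adjusted p = 1.7e-07; 1.02 without HFM replicate 1). At 24 hours the order turned, with 8.16, 8.19 and 8.12 in HFM, against 8.44, 8.40 and 8.42 in GM (-0.26 ± 0.07; adjusted p = 0.0044). HSPA4 showed the same turn on a smaller scale, 0.34 ± 0.06 at 12 hours and -0.24 ± 0.06 at 24 hours (adjusted p = 0.00026 and 0.0027). HSPH1 was 9.86, 9.99 and 9.95 in HFM at 24 hours, against 10.30, 10.33 and 10.50 in GM, a fall of 0.44 ± 0.07 (adjusted p = 0.00014). At 12 hours it was 10.03, 10.22 and 10.20 in HFM, against 9.98, 10.01 and 10.01 in GM. This difference of 0.15 ± 0.07 missed the threshold (adjusted p = 0.07) and passed it without HFM replicate 1 (0.21; adjusted p = 0.0097). Its other probe sets were called higher at 12 hours (0.37 and 0.28). All 3 HSP110-type genes thus lay higher in HFM on every array at 12 hours and lower on every array at 24 hours. With arrays centred, the 24-hour call of HSPA4L was lost (-0.08; adjusted p = 0.17). Centring moved the 24-hour median of all genes by 0.18, beside a difference of -0.24 for HSPA4. The turn of HSPA4 may therefore depend on scaling too.

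HSPA6, a strictly inducible HSP70 with a heat shock element run in its window, was close to the lowest level tested. It was 4.33, 4.47 and 4.47 in HFM at 12 hours, against 5.16, 5.42 and 5.07 in GM, a difference of -0.79 ± 0.10 (adjusted p = 3.6e-05) with no overlap. At 24 hours it was 4.15, 4.24 and 4.11 in HFM, against 4.62, 4.36 and 4.32 in GM. The 24-hour difference of -0.27 ± 0.10 had an adjusted p of 0.034 and lost its call without HFM 24-hour replicate 1, HFM 24-hour replicate 3 or GM 24-hour replicate 1, where the adjusted p reached 0.15, and with arrays centred (-0.09). The other probe set of HSPA6, with a mean of 3.93, was not called at 12 or 24 hours (-0.11 and -0.03; adjusted p = 0.41 and 0.81). HSPA1L, a member of the same family known from the testis, was 4.24, 3.67 and 4.30 in HFM at 24 hours, against 5.28, 5.19 and 5.19 in GM. It fell by 1.15 ± 0.17 on the log2 scale (adjusted p = 8.3e-05), and 1 of these HFM arrays was below log2 4. The other probe set of HSPA1L, with a mean of 3.84, was at 0.0079 at 24 hours (adjusted p = 0.97), so the fall rests on 1 probe set. At 12 hours HSPA1L was 5.62, 5.00 and 5.44 in HFM, against 5.70, 5.72 and 5.74 in GM, which missed the threshold (-0.37 ± 0.17; adjusted p = 0.073). It passed without HFM 12-hour replicate 1 (-0.50; adjusted p = 0.025) and without HFM 24-hour replicate 2 (adjusted p = 0.025).

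HSPA14 forms the ribosome-associated complex with DNAJC2, which meets nascent chains as they leave the ribosome. Both were higher in HFM at 12 hours, and at 24 hours they were called in opposite directions. HSPA14 was 10.14, 9.97 and 9.91 in HFM at 12 hours, against 9.54, 9.51 and 9.60 in GM (0.45 ± 0.06; adjusted p = 6.3e-05). At 24 hours it was 9.45, 9.47 and 9.41 in HFM, against 9.87, 9.87 and 9.83 in GM (-0.41 ± 0.06; adjusted p = 9.4e-05). Its groups were apart at both times, but its other probe sets were at -0.16 and -0.31 at 12 hours, the second called lower, and the mean of its probe sets gave -0.0039 there. DNAJC2 was 9.63, 9.51 and 9.45 in HFM at 12 hours, against 8.65, 8.64 and 8.64 in GM (0.88 ± 0.05; adjusted p = 1.7e-07). At 24 hours DNAJC2 was 10.03, 10.12 and 10.13 in HFM, against 9.82, 9.83 and 9.86 in GM (0.26 ± 0.05; adjusted p = 0.0012). Of the remaining HSP70 genes, HSPA12A, an atypical and distant member, was 6.38, 6.41 and 6.35 in HFM at 24 hours, against 7.13, 7.09 and 6.91 in GM (-0.67 ± 0.08; adjusted p = 1.7e-05). At 12 hours HSPA12A was 7.40, 7.15 and 7.13 in HFM, against 7.18, 7.09 and 7.20 in GM, with overlap and no call (0.07 ± 0.08; adjusted p = 0.47).

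By the probe sets standing for them, the mitochondrial HSPD1, HSPE1 and HSPA9 and the small heat shock protein HSPB1 differed between HFM and GM by 0.16 or less. HSPD1 (HSP60), which folds imported proteins inside a barrel closed by HSPE1 (HSP10), was 13.16, 13.14 and 13.12 in HFM at 24 hours, against 13.15, 13.15 and 13.14 in GM, with overlap (-0.00 ± 0.05; adjusted p = 0.95). At 12 hours HSPD1 was 12.99, 13.08 and 13.09 in HFM, against 12.88, 12.92 and 12.90 in GM (0.16 ± 0.05; adjusted p = 0.011). That call was lost with arrays centred (0.13; adjusted p = 0.061), and 1 of its other probe sets was called higher at 12 hours (0.36) and lower at 24 hours (-0.38). HSPE1, its neighbour on chromosome 2, was 11.43, 11.55 and 11.60 in HFM at 12 hours, against 11.47, 11.49 and 11.47 in GM. At 24 hours HSPE1 was 11.52, 11.53 and 11.52 in HFM, against 11.60, 11.59 and 11.74 in GM. Neither difference passed (0.05 ± 0.06 and -0.12 ± 0.06; adjusted p = 0.47 and 0.10). HSPA9 (mortalin), the matrix HSP70, was 11.65, 11.60 and 11.57 in HFM at 12 hours, against 11.56, 11.52 and 11.56 in GM. At 24 hours HSPA9 was 11.58, 11.58 and 11.60 in HFM, against 11.67, 11.65 and 11.68 in GM. Its differences of 0.06 ± 0.04 and -0.08 ± 0.04 were not called (adjusted p = 0.27 and 0.11), but 1 of its other probe sets was called higher at 12 hours (0.25; adjusted p = 0.0054) and another lower at 24 hours (-0.20; adjusted p = 0.010). HSPB1 (HSP27), which binds unfolding proteins without ATP, was 11.49, 11.09 and 11.09 in HFM at 12 hours, against 11.12, 11.10 and 11.15 in GM, where 1 HFM array, replicate 1, stood above all others. At 24 hours HSPB1 was 11.06, 10.98 and 11.02 in HFM, against 10.91, 10.89 and 10.79 in GM (0.16 ± 0.09; adjusted p = 0.17). Without HFM 12-hour replicate 1, the small 24-hour differences of HSPE1, HSPA9 and HSPB1 passed the threshold. HSPB8, the partner of BAG3, was near the lowest level tested and was not called at either time (0.04 ± 0.14 and -0.28 ± 0.14).

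**Figure D2:**
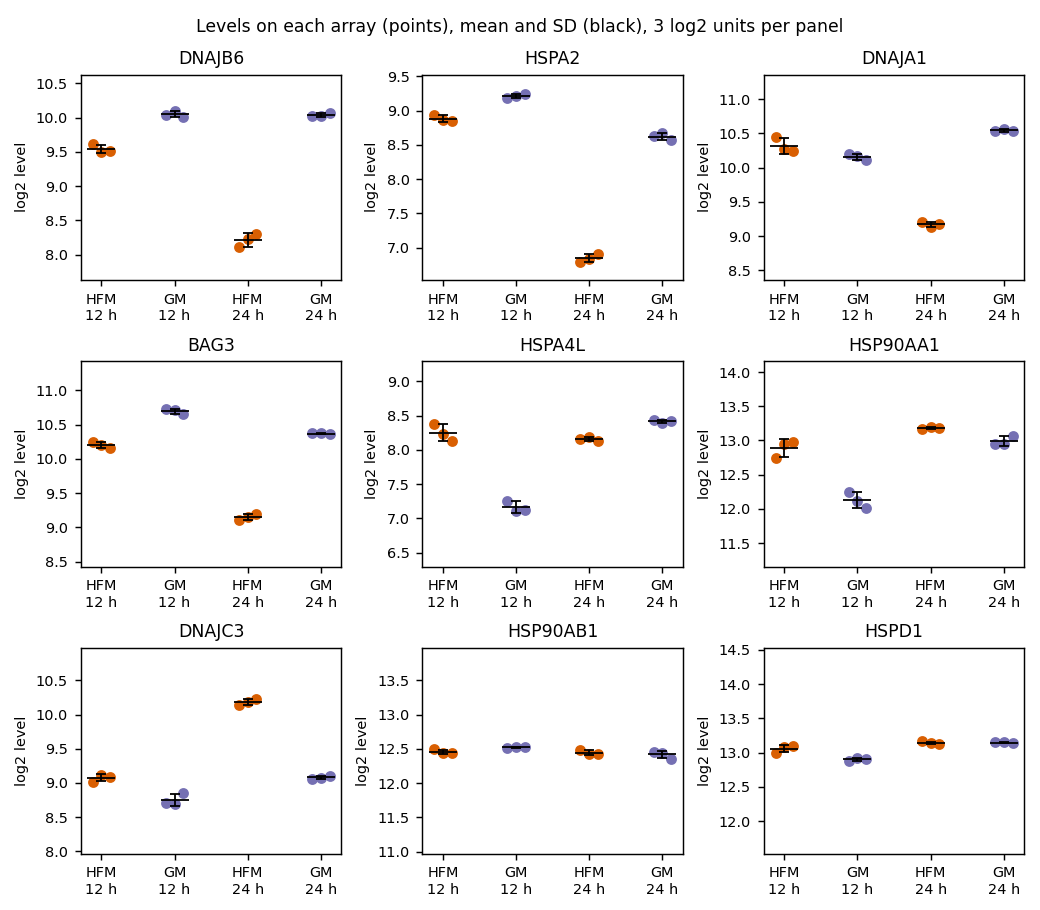
Log2 level on each array for 9 members, with the 4 groups along the x axis and, in black, mean and SD of 3 arrays. DNAJB6, HSPA2, DNAJA1 and BAG3 are lowest in HFM at 24 hours, HSPA4L and HSP90AA1 are lowest in GM at 12 hours, DNAJC3 is highest in HFM at 24 hours, and the group means of HSP90AB1 and HSPD1 differ by at most 0.24.

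Among the DNAJA genes, which carry the full set of bacterial DnaJ domains, 0 of 4 were higher and 3 were lower in HFM at 24 hours (20.6% and 37.5% of all genes). DNAJA1, a major cytosolic partner of HSP70, was 9.21, 9.13 and 9.18 in HFM at 24 hours, against 10.53, 10.57 and 10.54 in GM. It was 2.59-fold lower in HFM, far outside the spread of either group (-1.37 ± 0.06; adjusted p = 3.1e-09), and its other probe set was at -1.64. At 12 hours DNAJA1 was 10.44, 10.27 and 10.24 in HFM, against 10.20, 10.17 and 10.11 in GM. That small rise (0.16 ± 0.06; adjusted p = 0.033) was lost without HFM 12-hour replicate 1 (0.10; adjusted p = 0.056) and without GM 12-hour replicate 2 or 3 (adjusted p = 0.069 and 0.11), and its other probe set was called lower (-0.18). DNAJA2, another cytosolic partner, was 9.10, 9.09 and 9.12 in HFM at 24 hours, against 9.84, 9.91 and 9.97 in GM (-0.80 ± 0.05; adjusted p = 1.3e-07). At 12 hours DNAJA2 was 9.54, 9.53 and 9.54 in HFM, against 9.87, 9.75 and 9.71 in GM (-0.24 ± 0.05; adjusted p = 0.0023). DNAJA3, the mitochondrial member, was 9.23, 9.14 and 9.21 in HFM at 24 hours, against 9.58, 9.59 and 9.42 in GM (-0.34 ± 0.07; adjusted p = 0.0016). At 12 hours DNAJA3 was 9.90, 9.69 and 9.63 in HFM, against 10.09, 10.14 and 10.12 in GM (-0.37 ± 0.07; adjusted p = 0.00086), lower at both times, and the effects did not pass as different (0.04 ± 0.10; adjusted p = 0.76). DNAJA4 was not called (-0.13 ± 0.07 at 12 hours and -0.07 ± 0.07 at 24 hours).

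Of 9 DNAJB genes, 2 were higher and 3 lower in HFM at 24 hours, near the shares of all genes (20.6% and 37.5%). DNAJB6, which keeps aggregation-prone proteins from forming fibrils, showed the largest difference between HFM and GM of all 60 members. It was 8.11, 8.22 and 8.31 in HFM at 24 hours, against 10.03, 10.02 and 10.07 in GM, 3.55-fold lower in HFM (-1.83 ± 0.06; adjusted p = 4.5e-10). At 12 hours it was 9.61, 9.50 and 9.52 in HFM, against 10.04, 10.09 and 10.01 in GM (-0.51 ± 0.06; adjusted p = 2.1e-05). Its level was thus lower in HFM at both times and lowest on the HFM 24-hour arrays. DNAJB6, HSPA2 and BAG3 each had only 1 tested probe set, of a cross-hybridising type. Their falls could not be compared with another probe set. DNAJB1, the classical heat-inducible HSP40, was 9.49, 9.52 and 9.53 in HFM at 24 hours, against 10.27, 10.23 and 10.23 in GM (-0.73 ± 0.05; adjusted p = 1.3e-07). At 12 hours DNAJB1 was 10.18, 10.06 and 10.06 in HFM, against 10.65, 10.58 and 10.62 in GM (-0.51 ± 0.05; adjusted p = 4.7e-06). Its other probe set was also lower at 12 hours (-0.37) but was called higher in HFM at 24 hours (0.33), so the direction at 24 hours depends on the probe set. DNAJB5 was 5.73, 5.75 and 5.56 in HFM at 24 hours, against 5.04, 5.01 and 4.85 in GM (0.71 ± 0.13; adjusted p = 0.00042). At 12 hours DNAJB5 was 5.84, 5.47 and 5.33 in HFM, against 4.90, 5.07 and 5.27 in GM (0.47 ± 0.13; adjusted p = 0.0077), or 0.32 without HFM replicate 1 (adjusted p = 0.021). DNAJB2 was lower at 12 hours (-0.31 ± 0.09; adjusted p = 0.015) and not called at 24 hours (0.16 ± 0.09). DNAJB4 and DNAJB13 were not called at either time, and their differences lay between -0.14 and 0.41. The other probe set of DNAJB4 was called higher at 12 hours (1.13; adjusted p = 6.0e-08) and lower at 24 hours (-0.21; adjusted p = 0.0095).

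Members of the endoplasmic reticulum included 3 of the 4 largest rises at 24 hours. Of 7 on that list, 3 were higher and 3 lower in HFM at 24 hours (20.6% and 37.5% of all genes), with a median of 0.17. At 12 hours 4 were higher and 2 lower (28.9% and 33% of all genes). DNAJC3 (P58IPK), a lumenal co-chaperone that also restrains the kinases that slow translation, was 10.14, 10.18 and 10.22 in HFM at 24 hours, against 9.06, 9.08 and 9.10 in GM. It was 2.15-fold higher in HFM (1.10 ± 0.05; adjusted p = 1.1e-08), and its other 3 probe sets were at 0.80, 0.89 and 1.60. At 12 hours DNAJC3 was 9.02, 9.12 and 9.09 in HFM, against 8.71, 8.69 and 8.85 in GM (0.32 ± 0.05; adjusted p = 0.00036). DNAJB11 (ERdj3), which presents unfolded proteins to the lumenal HSP70, was 10.29, 10.24 and 10.22 in HFM at 24 hours, against 9.77, 9.77 and 9.67 in GM (0.51 ± 0.05; adjusted p = 6.8e-06), and was not called at 12 hours (0.01 ± 0.05). DNAJC10 (ERdj5), which reduces disulphide bonds of misfolded proteins, was 10.48, 10.51 and 10.53 in HFM at 24 hours, against 9.95, 10.06 and 10.14 in GM (0.45 ± 0.10; adjusted p = 0.0017). At 12 hours DNAJC10 was 9.48, 9.92 and 9.86 in HFM, against 9.15, 9.24 and 9.23 in GM (0.55 ± 0.10; adjusted p = 0.00051). The 3 lumenal co-chaperones DNAJC3, DNAJB11 and DNAJC10 were therefore higher on every HFM array than on every GM array at 24 hours.

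The lumenal genes were not set apart as a list beforehand, and the other members of the endoplasmic reticulum list did not share a direction. DNAJB12, which faces the cytosol from the membrane of the endoplasmic reticulum, was 6.93, 6.74 and 6.78 in HFM at 24 hours, against 7.62, 7.45 and 7.46 in GM (-0.69 ± 0.08; adjusted p = 1.9e-05). At 12 hours DNAJB12 was 7.60, 7.36 and 7.31 in HFM, against 8.09, 7.96 and 8.09 in GM (-0.62 ± 0.08; adjusted p = 6.9e-05). Its close relative DNAJB14 went the other way at 12 hours, with 7.82, 8.15 and 8.22 in HFM, against 7.17, 7.22 and 7.12 in GM (0.89 ± 0.09; adjusted p = 8.7e-06). At 24 hours DNAJB14 was 8.43, 8.46 and 8.58 in HFM, against 8.23, 8.35 and 8.37 in GM, which missed the threshold (0.17 ± 0.09; adjusted p = 0.14) and passed it with arrays centred or without HFM 12-hour replicate 1. DNAJC1 was lower at both times (-0.31 ± 0.05 and -0.24 ± 0.05). HSPA13, an HSP70-like protein of the microsomes, was higher at 12 hours (0.33 ± 0.07) and lower at 24 hours (-0.39 ± 0.07; adjusted p = 0.00032), but its other probe set was called higher at 24 hours (1.17), so its direction at 24 hours is uncertain. The lumenal HSP70 that these co-chaperones serve is HSPA5 (BiP), which the rule left out and which was 1.53 ± 0.06 higher in HFM at 24 hours (adjusted p = 1.7e-09) and not called at 12 hours (-0.00 ± 0.06; adjusted p = 0.99).

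The DNAJC genes share only the J domain and serve many places in the cell, and they moved both ways. At 24 hours 5 of 24 were higher in HFM and 14 lower (20.6% and 37.5% of all genes). At 12 hours 8 were higher and 10 lower (28.9% and 33% of all genes). DNAJC17, found with splicing factors, was 5.86, 5.90 and 5.79 in HFM at 24 hours, against 6.97, 6.93 and 6.92 in GM (-1.09 ± 0.10; adjusted p = 1.5e-06). At 12 hours it was 7.53, 7.10 and 7.11 in HFM, against 7.48, 7.48 and 7.59 in GM, and the groups overlapped through HFM replicate 1 (-0.27 ± 0.10; adjusted p = 0.031; -0.41 without it). DNAJC30, a mitochondrial protein, was 6.64, 6.63 and 6.67 in HFM at 24 hours, against 7.68, 7.61 and 7.64 in GM (-0.99 ± 0.12; adjusted p = 2.3e-05). At 12 hours DNAJC30 was 7.89, 7.36 and 7.27 in HFM, against 7.79, 7.85 and 7.87 in GM (-0.34 ± 0.12; adjusted p = 0.032; -0.53 without HFM replicate 1). The 12-hour calls of DNAJC17 and DNAJC30 were each lost on leaving out any of the other 5 arrays of that time, with adjusted p up to 0.12 and 0.13. DNAJC5, the cysteine string protein of secretory vesicles, was 6.71, 6.73 and 6.78 in HFM at 24 hours, against 7.56, 7.63 and 7.51 in GM (-0.83 ± 0.05; adjusted p = 9.0e-08). At 12 hours DNAJC5 was 7.51, 7.45 and 7.45 in HFM, against 8.04, 8.13 and 8.17 in GM (-0.64 ± 0.05; adjusted p = 1.5e-06), lower on every HFM array.

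By the probe sets standing for them, several DNAJC genes were higher in HFM at 12 hours and lower at 24 hours. DNAJC27, which joins a J domain to a small GTPase, was 6.49, 6.19 and 6.29 in HFM at 12 hours, against 5.66, 5.54 and 5.54 in GM (0.75 ± 0.07; adjusted p = 5.7e-06). At 24 hours DNAJC27 was 6.01, 6.11 and 6.12 in HFM, against 6.33, 6.28 and 6.27 in GM (-0.22 ± 0.07; adjusted p = 0.024). That 24-hour call was lost without HFM 24-hour replicate 1 or GM 24-hour replicate 1 or 2 (adjusted p = 0.051 to 0.088) and with arrays centred (-0.04). It was also lost as a mean of probe sets (-0.07) and with quantile normalisation repeated (-0.13). The other probe set of DNAJC27 was not called at 24 hours (0.03; adjusted p = 0.87). DNAJC21, which acts in the maturation of the large ribosomal subunit, was 8.56, 8.59 and 8.55 in HFM at 24 hours, against 8.87, 8.96 and 8.92 in GM (-0.35 ± 0.05; adjusted p = 0.00013). At 12 hours DNAJC21 was 8.89, 8.83 and 8.83 in HFM, against 8.25, 8.16 and 8.34 in GM (0.60 ± 0.05; adjusted p = 2.9e-06). Its other probe sets were not called at 24 hours (-0.12, 0.28 and -0.28). DNAJC6 (auxilin), which helps HSP70 strip clathrin from vesicles, turned in the same way (0.53 ± 0.05 at 12 hours and -0.22 ± 0.05 at 24 hours). Centring moved the 24-hour median of all genes by 0.18, so the fall of DNAJC6 may depend on scaling. DNAJC24, which acts in the diphthamide modification of elongation factor eEF2, was higher at both times (0.61 ± 0.07 and 0.21 ± 0.07), and the endosomal DNAJC13 only passed the test at 12 hours (0.41 ± 0.11 and 0.24 ± 0.11). These 5 genes were thus all above GM at 12 hours, whereas DNAJC4 was lower at 12 hours (-0.28 ± 0.08) and higher at 24 hours (0.26 ± 0.08). Of the 4 other probe sets of DNAJC4, 1 was called lower at 12 hours (-0.50) and 1 higher at 24 hours (0.32). The rest were not called, and at 24 hours they lay at -0.14, -0.06 and -0.10. The histone co-chaperone DNAJC9 was lower at both times (-0.20 ± 0.05 and -0.60 ± 0.05), and so were DNAJC11 of the mitochondrial membrane (-0.41 ± 0.09 and -0.62 ± 0.09), DNAJC14 (-0.36 ± 0.05 and -0.43 ± 0.05) and DNAJC5B, which was near the lowest level tested (-0.23 ± 0.06 and -0.18 ± 0.06). Some falls passed the test at 24 hours alone. DNAJC19, of the mitochondrial import motor, DNAJC16 and DNAJC8 were called lower at 24 hours, at -0.64 ± 0.07, -0.49 ± 0.06 and -0.39 ± 0.08. DNAJC22 was called at 12 hours, lower (-0.28 ± 0.10), and its other probe set was called lower at 24 hours (-0.77). DNAJC7, DNAJC18 and DNAJC5G were not called at either time, and their differences lay between -0.09 and 0.15. The dimmer probe sets of DNAJC7 gave other values, with 0.97 and 0.47 at 12 hours, the first called higher, and 1.94 and 0.90 at 24 hours, both called higher, so its direction is uncertain. The other probe set of DNAJC18 was called lower at 24 hours (-0.38).

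The BAG genes held some of the largest falls at 24 hours, when 4 of 6 were lower in HFM and 1 was higher, with a median of -0.91. Of all genes, 37.5% were lower and 20.6% higher. BAG3, which links HSP70 to small heat shock proteins and to selective autophagy and is a known HSF1 target, was 9.11, 9.14 and 9.19 in HFM at 24 hours, against 10.38, 10.37 and 10.36 in GM, 2.33-fold lower in HFM (-1.22 ± 0.05; adjusted p = 1.3e-09). At 12 hours BAG3 was 10.24, 10.20 and 10.16 in HFM, against 10.72, 10.72 and 10.66 in GM (-0.50 ± 0.05; adjusted p = 3.4e-06). BAG2, which inhibits the ubiquitin ligase CHIP, was 8.01, 8.03 and 7.95 in HFM at 24 hours, against 9.16, 9.24 and 9.23 in GM (-1.21 ± 0.06; adjusted p = 1.3e-08). At 12 hours BAG2 was slightly higher, with 9.46, 9.25 and 9.23 in HFM, against 9.07, 9.07 and 9.04 in GM (0.25 ± 0.06; adjusted p = 0.0039; 0.18 without HFM replicate 1). BAG5, which has several BAG domains, was 7.15, 7.18 and 7.15 in HFM at 24 hours, against 8.32, 8.33 and 8.18 in GM (-1.12 ± 0.10; adjusted p = 9.7e-07). At 12 hours BAG5 was 8.59, 8.25 and 8.15 in HFM, against 8.20, 8.11 and 8.18 in GM, with overlap and no call (0.17 ± 0.10; adjusted p = 0.15), and it was 0.03 without HFM replicate 1 (adjusted p = 0.59) and passed without HFM replicate 3 (0.26; adjusted p = 0.032). Its other probe sets were at 0.70, called higher, and -0.06 at 12 hours, and both were called lower at 24 hours. BAG2, BAG3 and BAG5 were therefore each lowest on the 3 HFM 24-hour arrays.

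BAG1, which couples HSP70 to the proteasome, was lower in HFM at both times. It was 6.49, 6.40 and 6.42 in HFM at 24 hours, against 7.25, 7.15 and 7.02 in GM (-0.70 ± 0.09; adjusted p = 3.8e-05), and 7.82, 7.54 and 7.47 in HFM at 12 hours, against 8.33, 8.15 and 8.29 in GM (-0.65 ± 0.09; adjusted p = 0.00011). BAG6, which guides tail-anchored and mislocalised proteins, was 9.87, 9.81 and 9.90 in HFM at 24 hours, against 9.68, 9.62 and 9.63 in GM (0.22 ± 0.08; adjusted p = 0.031). The call was lost on leaving out HFM 24-hour replicate 1 or 3 or GM 24-hour replicate 2 or 3 (adjusted p = 0.070 to 0.091). At 12 hours BAG6 was 10.15, 9.84 and 9.81 in HFM, against 10.27, 10.27 and 10.26 in GM (-0.33 ± 0.08; adjusted p = 0.0030; -0.44 without HFM replicate 1). With a term for the class of the hybridisation controls, the 12-hour difference of BAG6 was -0.12, by way of 1 HFM array. BAG4 was not called (0.07 ± 0.13 and 0.20 ± 0.13). However, 1 of its dimmer probe sets was called higher at both times (0.44 and 0.68) and another at 12 hours (0.36).

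The effect of HFM was compared between the times in the same model, as the difference at 24 hours minus the difference at 12 hours. It was called positive for 6 members and negative for 28, with 19.4% and 33.4% of all genes and 52.8% called at all. Without HFM 12-hour replicate 1 it was called positive for 9 and negative for 34, with no share of all genes given for that fit. With arrays centred the counts were 14 and 24, with 38.6% and 23.9% of all genes. Differences of 2-fold or more were called positive for 0 members and negative for 6 (1.25% and 6.71% of all genes). Of the 60, 9 were higher at 12 hours and lower at 24 hours (9.19% of all genes), namely BAG2, DNAJA1, DNAJC21, DNAJC27, DNAJC6, HSPA13, HSPA14, HSPA4 and HSPA4L. Of these 9, another probe set was called in the opposite direction for DNAJA1 and HSPA14 at 12 hours and for HSPA13 at 24 hours. With arrays centred the 24-hour calls of DNAJC27 and HSPA4L were lost, and those of HSPA4 and DNAJC6 may depend on scaling. A further 17 of the 60 were lower at both times (16.2% of all genes) and 6 were higher at both (11.1%). BAG6 and DNAJC4 were lower at 12 hours and higher at 24 hours (2.88%). Only 1 of 4 other probe sets of DNAJC4 was called the same way at each time. The largest negative differences were -1.53 ± 0.08 for DNAJA1, -1.47 ± 0.09 for BAG2 and -1.45 ± 0.07 for HSPA2 (adjusted p = 6.4e-08, 1.3e-07 and 4.3e-08). The largest positive difference was 0.78 ± 0.08 for DNAJC3 (adjusted p = 6.6e-06).

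**Figure D3:**
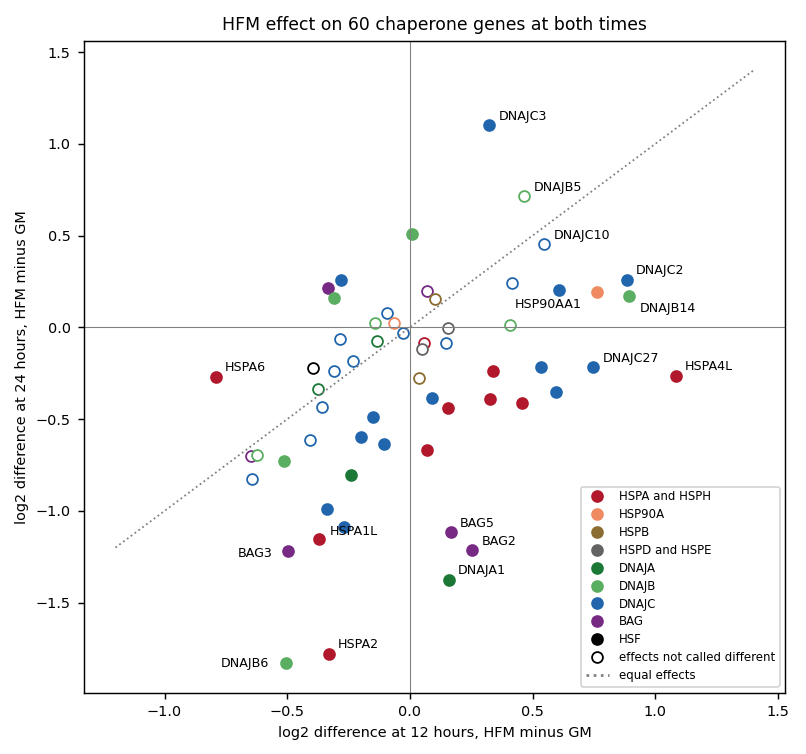
Log2 difference, HFM minus GM, at 12 hours (x axis) and 24 hours (y axis) for the 60 tested members, coloured by subfamily, with filled points where the difference between times had an adjusted p under 0.05. DNAJB6, HSPA2, DNAJA1, BAG2, BAG3 and BAG5 lie at the bottom, below the dotted line of equal effects, and DNAJC3 lies above it.

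Each medium was also compared with itself over time. At 24 hours against 12 hours, 9 members were higher and 30 lower in HFM (20.1% and 43.1% of all genes, 63.1% called at all), and 26 were higher and 18 lower in GM (29.4% and 40.5%, 69.9% called at all). By 2-fold or more, 1 member was higher and 9 lower at 24 hours in HFM (2.35% and 5.3% of all genes), and 3 were higher and 1 lower in GM (3.85% and 0.419%). The arrays of the times did not overlap for 42 members in HFM (65.9% of all genes) and 49 in GM (78.9%). Without HFM 12-hour replicate 1, 12 were higher and 30 lower in HFM, and 26 higher and 24 lower in GM, again with no share of all genes given. With arrays centred, 23 members were higher and 23 lower in HFM (39.1% and 28.9% of all genes), since the median of all genes then moved by 0.22. HSPA4L did not pass in HFM (-0.09 ± 0.07; adjusted p = 0.24) and was 1.25 ± 0.07 higher at 24 than at 12 hours in GM (adjusted p = 3.5e-08). HSP90AA1, DNAJC2 and DNAJB14 were higher at 24 hours in both media, in HFM by 0.29 ± 0.08, 0.56 ± 0.05 and 0.43 ± 0.09, and in GM by 0.86 ± 0.08, 1.19 ± 0.05 and 1.15 ± 0.09. The GM 12-hour arrays enter both the GM time comparison and the HFM comparison at 12 hours, so these values are not independent of the 12-hour results. DNAJB6 fell by 1.33 ± 0.06 between the times in HFM (adjusted p = 5.6e-09) and was not called in GM (-0.01 ± 0.06; adjusted p = 0.90). BAG2 and DNAJA1 were lower at 24 hours in HFM (-1.32 ± 0.06 and -1.14 ± 0.06) and higher in GM (0.15 ± 0.06 and 0.39 ± 0.06). HSPA2 was lower at 24 hours in both media, with -2.04 ± 0.05 in HFM and -0.59 ± 0.05 in GM. BAG1 was lower in both as well, with -1.17 ± 0.09 in HFM and -1.12 ± 0.09 in GM, and these did not pass as different (-0.06 ± 0.13; adjusted p = 0.74). DNAJC3 was 1.11 ± 0.05 higher at 24 hours in HFM and 0.33 ± 0.05 higher in GM.

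**Figure D4:**
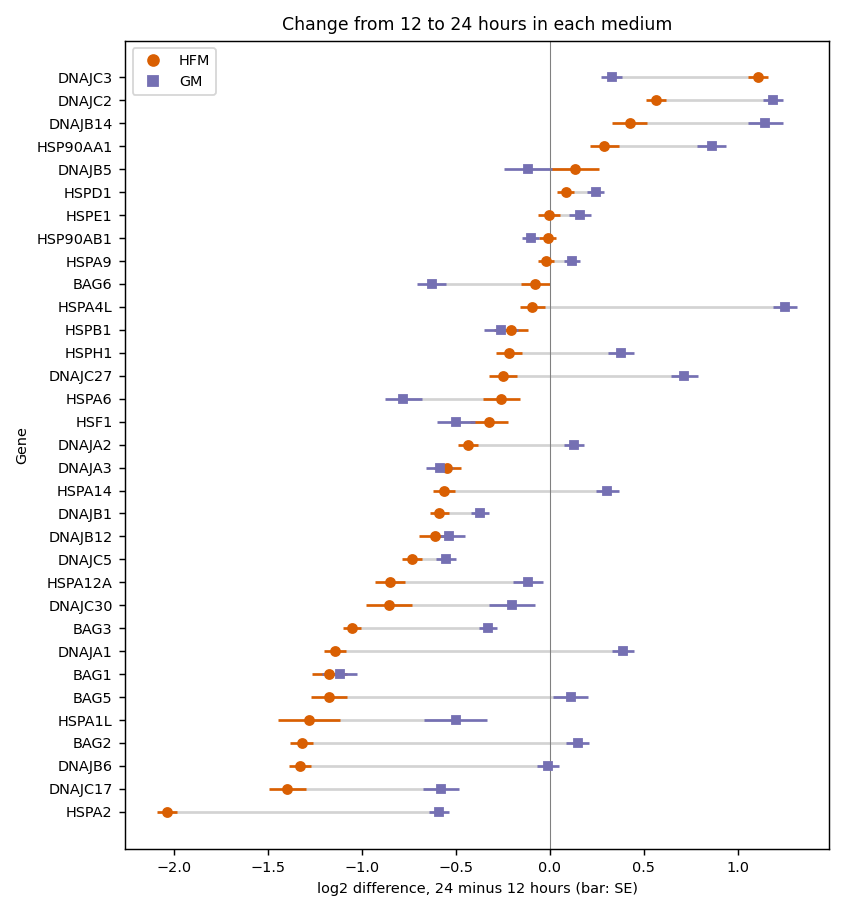
Log2 difference between 24 and 12 hours in HFM (circles) and GM (squares) for 33 named members, with standard errors and 3 arrays per group. HSPA2 at the bottom fell furthest in HFM, DNAJC3 at the top rose most in HFM, and the squares of HSPA4L, DNAJC2 and DNAJB14 lie furthest to the right.

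Chaperone genes outside the member rule were read from lists set by function. Of 14 tested cochaperones of HSP90 and HSP70 (15 listed), 1 was higher in HFM at 24 hours and 10 were lower, with a median of -0.22, where 20.6% of all genes were higher and 37.5% lower. With arrays centred, 1 was higher and 2 were lower (37% and 26.2% of all genes). TTC4 and FKBP4, both of which dock on HSP90, were lower (-0.58 ± 0.06 and -0.36 ± 0.07), and TOMM34, which brings precursors to mitochondria, was higher (0.36 ± 0.07; adjusted p = 0.00095). At 12 hours, 2 of the 14 were higher and 5 lower (28.9% and 33% of all genes). Of 12 tested subunits of the cytosolic chaperonin and of prefoldin (14 listed), 0 were higher and 7 lower at 24 hours (20.6% and 37.5% of all genes), with a median of -0.18. At 12 hours 7 of these subunits were higher and 2 lower (28.9% and 33% of all genes). With arrays centred the counts of subunits were 2 higher and 5 lower at 24 hours (median -0.0046) and 6 and 5 at 12 hours. Of all genes, 37% and 26.2% were then called at 24 hours, and 28.2% and 36.6% at 12 hours. CCT7, CCT5 and PFDN1 were at -0.39 ± 0.07, -0.36 ± 0.07 and -0.36 ± 0.05 at 24 hours. Of 7 organelle chaperones and exchange factors, 4 were higher and 1 lower at 24 hours (20.6% and 37.5% of all genes), with a median of 0.55. Beside HSPA5, HSP90B1 (GRP94), the HSP90 of the endoplasmic reticulum, was 0.77 ± 0.05 higher and the lumenal HYOU1 was 0.71 ± 0.07 higher, whereas GRPEL1, the exchange factor of mitochondrial HSP70, was lower (-0.63 ± 0.10). Of the 6 tested members on the mitochondrial list, 0 were higher and 3 lower at 24 hours (20.6% and 37.5% of all genes), with a median of -0.23. That list did not hold DNAJC30 (-0.99). Outside the endoplasmic reticulum and mitochondrial lists were 47 members, DNAJC30 among them. Of these 47, 6 were higher and 27 lower at 24 hours (20.6% and 37.5% of all genes), with a median of -0.26.

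Markers of cell types also moved with the medium. Sums were taken over all listed markers, those below the level tested included. On HFM arrays at 24 hours the 9 endothelial markers, 5 of them tested, summed to 8.12 to 8.22 (log2 of the sum). On GM arrays this was 8.45 to 8.56. At 12 hours it was 8.37 to 8.55 in HFM and 8.93 to 8.98 in GM. For the 4 epithelial markers, 2 of them tested, it was 10.73 to 10.81 in HFM and 10.96 to 11.05 in GM at 24 hours. At 12 hours it was 11.05 to 11.27 in HFM and 11.78 to 11.88 in GM. KRT19 alone was at 10.70 to 11.85 over the 12 arrays, so the epithelial sum is mostly KRT19. The 5 leukocyte markers, 3 of them tested, summed to 6.82 to 6.94 in HFM and 6.98 to 7.06 in GM at 24 hours. At 12 hours they summed to 7.06 to 7.18 in HFM and 7.53 to 7.65 in GM. The 8 hepatocyte markers, 3 of them tested, summed to 7.01 to 7.07 in HFM and 6.79 to 6.88 in GM at 24 hours. At 12 hours they summed to 6.92 to 7.02 in HFM and 7.16 to 7.17 in GM. The part of these markers in the results on chaperones was not tested.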

How the data were processed

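Total RNA of Sk-hep1 cells was hybridised to Affymetrix arrays of 54675 probe sets, 3 arrays for each of 4 groups. The deposited log2 values come from GCRMA (background correction, normalisation and a summary per probe set), run by the authors per the submitters' processing notes; no source used here gives its version. Of the probe sets, 41097 had 1 symbol in the platform annotation, and the 1801 with several symbols and 11777 without any were not used. Each gene was represented by the probe set with the highest mean over 12 arrays, and a gene was tested if 3 or more arrays reached log2 4. A model with 4 group means was fitted to 13130 genes by lmFit and eBayes of limma 3.58.1 (R 4.3.3), Benjamini-Hochberg adjusted, with calls at an adjusted p under 0.05. The error given with a log2 difference is the model's standard error, at n = 3 arrays in each group. The number of arrays limits the precision. The fit was tested on simulated data.

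The members, the gene lists and the alternatives were chosen with earlier results of these data known. Values on every array were given for HSF1, HSP90AA1, HSP90AB1, HSPA4L, HSPH1, HSPB1, HSPD1, HSPE1, HSPA9, DNAJB1, DNAJA1 and BAG3, and for the 3 called members with the largest change of each subfamily at each time; those of DNAJC10, DNAJB11 and DNAJC21 were added after their values were seen. From each context list up to 3 called genes with the largest change at 24 hours were named. Alternatives were no filter, a filter at log2 6, averaging the probe sets of a gene, cross-hybridising probe set types left out, centred arrays, repeated quantile normalisation, a trended robust eBayes, a replicate block, a term for the class of the hybridisation controls, a 2-fold minimum, and each array left out. Same-numbered arrays of different groups deviated from their group means with r between -0.17 and 0.42, so the numbers were not taken as pairs. Gene positions and promoters are from RefSeq (GRCh38.p14). Plots were made in Python 3.11.15 with matplotlib 3.10.9.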

Additional observations from a re-analysis of the deposited data

Results flagged for a closer look

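Of the 33 members given with all their values, 22 had an HFM effect that differed between 24 and 12 hours (limma, adjusted p under 0.05). Of these, 19 went downward and 3 upward. Among all 60 members 34 were called, and among all genes 52.8%. The 33 were partly chosen for large changes in these data, which can raise their count. In log2 units, the effect at 24 hours minus that at 12 hours was -1.53 for DNAJA1, -1.47 for BAG2, -1.45 for HSPA2, -1.35 for HSPA4L, -1.32 for DNAJB6 and -1.28 for BAG5. It was -0.96 for DNAJC27, -0.87 for HSPA14, -0.82 for DNAJC17, -0.78 for HSPA1L, -0.73 for HSPA12A, -0.72 for BAG3 and -0.72 for DNAJB14. It was -0.65 for DNAJC30, -0.63 for DNAJC2, -0.6 for HSPH1, -0.57 for HSP90AA1, -0.56 for DNAJA2 and -0.22 for DNAJB1. The upward differences were 0.78 for DNAJC3, 0.55 for BAG6 and 0.52 for HSPA6. For DNAJA1 and HSPA14 at 12 hours, and for DNAJB1 at 24 hours, another probe set was called in the opposite direction.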

How the results depend on the processing

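Among results for single named members, 634 of the values under alternatives kept their side of the threshold at 12 hours, 16 gained a call, 23 lost it and 6 with a call changed sign; at 24 hours these numbers were 630, 16, 31 and 2. Of the 634 and 630, 5 and 7 never had a call and changed sign too. A 2-fold minimum left 1 member higher and 0 lower at 12 hours, 1 and 8 at 24 hours, 0 and 6 for the difference between times, 1 and 9 for HFM over time, and 3 and 1 for GM over time. Without cross-hybridising probe set types, 14 were lower at 12 hours, 5 higher at 24 hours, 19 lower over time in HFM and 10 lower over time in GM; fewer members are then tested. Centred arrays gave 16 higher at 24 hours, 14 positive differences between times and 23 higher over time in HFM. A term for the class of the hybridisation controls gave 14 higher at 24 hours; that fit sets HFM against GM at 12 hours by way of 1 HFM array. Leaving out each array gave 17 to 20 higher and 19 to 24 lower at 12 hours, 6 to 14 and 31 to 36 at 24 hours, 6 to 9 and 27 to 34 for the difference between times, 9 to 12 and 28 to 30 for HFM over time, and 22 to 26 and 17 to 24 for GM over time; leaving out HFM 12-hour replicate 1 gave most of the highest counts. The cause of these shifts was not tested.

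With a call before or after, signs changed for DNAJA1 at 12 hours (-0.011 as a mean of probe sets, -0.18 without cross-hybridising types), HSPA14 at 12 hours (-0.0039 as a mean), HSPD1 at 12 hours (-0.12 without those types), DNAJC17 and DNAJC30 at 12 hours (0.014 and 0.047 with the class term), HSP90AB1 at 24 hours (-0.20 as a mean) and HSPD1 at 24 hours (0.18 centred). Uncalled values that changed sign were HSPA12A at 12 hours (-0.08 as a mean, -0.02 with quantile normalisation repeated and -0.02 without HFM replicate 1), HSPB1 at 12 hours (-0.03 without that array), HSPE1 at 12 hours (-0.05 with the class term) and at 24 hours (0.06 centred), HSP90AB1 at 24 hours (-0.0058 without GM replicate 3), HSPA9 at 24 hours (0.09 centred, 0.06 without cross-hybridising types and as a mean) and HSPD1 at 24 hours (0.10 as a mean, 0.0054 without HFM replicate 3). The replicate numbers did not pair the arrays (median r 0.03); with the replicate block, 21 members were higher and 23 lower at 12 hours, and 8 and 33 at 24 hours, and the difference between times was positive for 6 and negative for 29.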
